A study of Mus musculus with 23 samples.

Results

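Transcripts that mark retinal ganglion cells (RGCs) were followed in RNA-seq libraries of microglia sorted from mouse retinas. The set holds 10 genes, chosen by symbol among the 35825 genes of the deposited table: Rbpms, Sncg, Nefl, Nefm, Nefh, Thy1, Pou4f1, Pou4f2, Slc17a6 and Gap43. All 10 were found in the table, and all 10 passed the filter on low values (10 or more normalized counts in 3 or more libraries), as did 17102 genes in all.

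RGCs are the projection neurons of the retina, and their axons form the optic nerve. Neurofilaments fill those axons, the transcription factors of the Pou4f family set and maintain ganglion cell identity, and Slc17a6 loads glutamate into synaptic vesicles. Damage to the optic nerve or raised intraocular pressure (IOP) leads to loss of RGCs, and many RGC transcripts are known to be shut down in injured cells before the cells are lost. Microglia are the resident macrophages of the retina and clear dying neurons. RNA of neurons can enter a library of sorted microglia in several ways, among them engulfed material, cell debris and sorted neurons or doublets, and bulk libraries do not tell these apart.

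The libraries were made from live, single GFP+ cells sorted by FACS after papain dissociation. GFP was expressed from the Cx3cr1 locus, which marks microglia and also other macrophages and monocytes. All mice carried this allele, and the KO line was bred from mice heterozygous for it. CX3CR1-GFP mice without a further mutation are called WT here. Spp1 KO; CX3CR1-GFP mice were in addition homozygous for a germline knockout of Spp1, which encodes the secreted protein osteopontin, and are called KO. Each genotype had naïve retinas (4 WT and 4 KO libraries), retinas at 4 weeks after IOP elevation by microbeads injected into the anterior chamber (4 and 4) and retinas at day 7 after optic nerve crush (ONC, 3 and 4). The labels of the libraries called naïve here read control. The paper's control mice for the microbead model were injected with saline, and whether these retinas were injected was not given in the sources used here. Retinas of several mice were pooled before each sort. The number of mice per pool and the ages of the mice were not given in the sources used here. Whether each library is a separate pool was not given either, so a p-value measures the spread between libraries.

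The 4 members for which RefSeq (GRCm38.p6) supplied bases upstream of the gene start are shown here with the sequence of that window. Of these, 3 (Sncg, Pou4f1 and Slc17a6) were called lower after ONC in both genotypes. Whether the windows bear on those falls was not tested. The Slc17a6 window ends at position 51621829, short of the gene start used here, 51622006. The sequences are written 5′ to 3′ along the gene. Capitals mark matches to the GC box GGGCGG on either strand, with overlapping matches joined.

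Sncg (chr14:34374790-34374919, minus strand): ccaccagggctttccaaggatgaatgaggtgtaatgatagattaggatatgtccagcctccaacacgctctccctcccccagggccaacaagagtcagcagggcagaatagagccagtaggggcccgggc

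Pou4f1 (chr14:104468000-104468249, minus strand): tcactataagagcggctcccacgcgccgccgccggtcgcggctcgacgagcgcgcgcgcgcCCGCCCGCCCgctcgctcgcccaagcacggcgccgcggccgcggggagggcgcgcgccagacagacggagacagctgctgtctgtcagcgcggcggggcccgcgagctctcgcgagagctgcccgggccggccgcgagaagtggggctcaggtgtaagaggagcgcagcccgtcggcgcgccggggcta

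Pou4f2 (chr8:78436648-78436897, minus strand): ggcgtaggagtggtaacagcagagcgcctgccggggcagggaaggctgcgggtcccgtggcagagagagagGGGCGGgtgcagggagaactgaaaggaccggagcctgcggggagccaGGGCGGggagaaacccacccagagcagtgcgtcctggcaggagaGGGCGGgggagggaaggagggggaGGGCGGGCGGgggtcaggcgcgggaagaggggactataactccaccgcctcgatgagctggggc

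Slc17a6 (chr7:51621580-51621829, plus strand): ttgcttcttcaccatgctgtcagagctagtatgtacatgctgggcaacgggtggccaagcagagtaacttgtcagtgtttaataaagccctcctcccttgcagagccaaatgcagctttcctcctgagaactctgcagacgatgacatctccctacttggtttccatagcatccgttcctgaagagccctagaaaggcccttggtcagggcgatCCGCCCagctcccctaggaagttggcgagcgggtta

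The GC box was matched 2 times for Pou4f1, 5 times for Pou4f2, 1 time for Slc17a6 and 0 times for Sncg, whose window has 130 bases against 250 for the others. It was found in 32.7% of 32851 upstream windows of 250 bases. A TATA box (TATAAA), a Pou4f core (AATTAAT) and a cAMP response element (TGACGTCA) were searched on both strands as well. Each had 0 matches in the 4 windows, and they were found in 12.4%, 2.46% and 1.55% of all windows.

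Reads on genes numbered 22180480 to 30296094 in the 21 libraries for which read counts could be recovered. A count of 0 allows up to 3 reads, or 2.41 to 4.03 normalized counts depending on the library, for counting error only. The 12 microglia genes examined were present in all 23 libraries and summed to 1.2 to 3.62% of a library's counts. Among them Cx3cr1, the locus of the GFP allele, ranged from 952.2 to 67880 normalized counts. The number of GFP alleles in the sorted mice was not given in the sources used here, and the cause of this range was not tested. Spp1 goes against the label of several libraries. It reached 350.2, 53.1, 6.78 and 81.6 normalized counts in the 4 libraries labelled KO naïve, 25.5, 811, 9.28 and 761 in those labelled KO IOP and 4750.4, 6811, 15.0 and 6226 in those labelled KO ONC. The WT ranges were 334 to 1518 (naïve), 1343 to 2772 (IOP) and 14557 to 22906 (ONC). A count over a whole gene also includes exons outside a deletion, and the deleted part was not given in the sources used here. Every KO result below is therefore one of libraries labelled KO. Other libraries stood apart too. The 8 lens genes summed to 191400 and 210700 normalized counts in WT IOP replicates 1 and 4 and to 20 to 44100 in the other 21 libraries. KO naïve replicate 3 held 921900 normalized counts of microglia genes against 277800 to 346100 in the other KO naïve libraries, and its rod genes (322000) were below theirs (724300 to 820800).

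RGC transcripts were a small part of every library. In naïve WT libraries the 10 genes summed to 0.0457% ± 0.00654 of the normalized counts (SD, n = 4), against 1.72% ± 0.166 for 13 rod genes and 3.25% ± 0.315 for the 12 microglia genes. Nefl alone made up 84.1 to 87.2% of the sum in naïve WT and 53.6 to 87.2% over all 23 libraries. Per kilobase of exon, the naïve WT mean was 2940 normalized counts for Nefl, 264.6 for Sncg, 212.2 for Gap43, 84.8 for Nefm, 50.3 for Thy1, 39.3 for Nefh, 28.5 for Slc17a6, 10.3 for Rbpms, 4.78 for Pou4f1 and 2.48 for Pou4f2. Nefl (chr14:68083863-68089095, plus strand) lies within the span of Nefm (chr14:68082590-68124846, minus strand), and 1108 exonic bases belong to both, 19.16% of those of Nefm. Whether strand was used in counting was not given in the sources used here, so a part of the Nefm counts can come from the far more abundant Nefl.

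**Figure D1:**
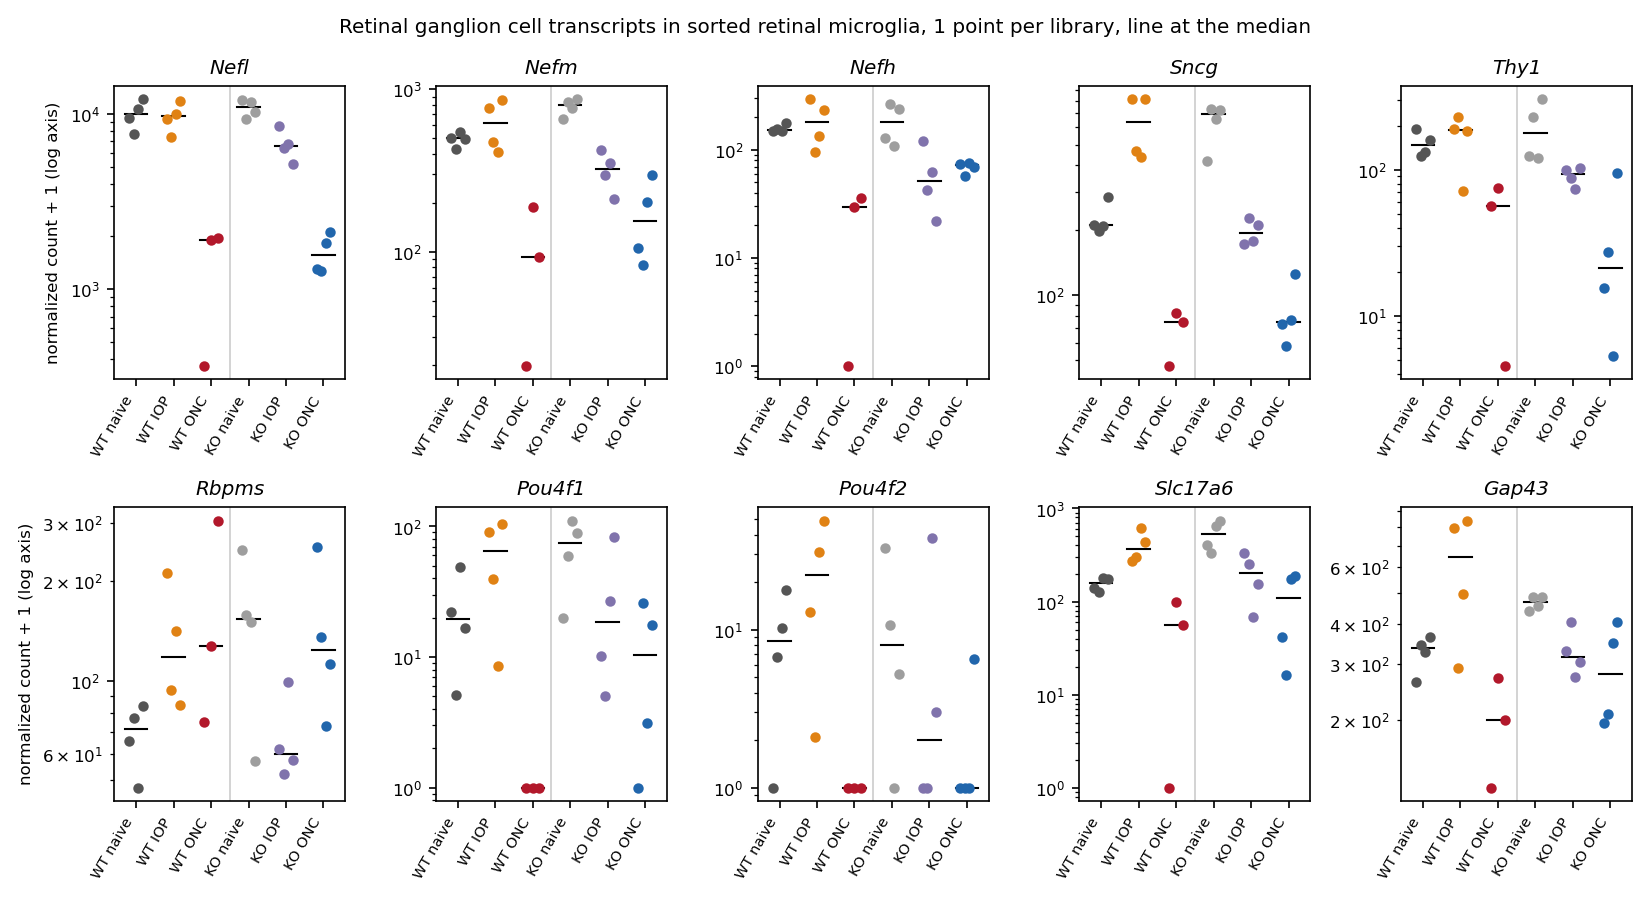
Normalized count + 1 (log axis) of the 10 ganglion cell genes in each of the 23 libraries, by group, with a line at the group median. Nefl, Nefm and Sncg lie below every naïve library in all ONC libraries of both genotypes, whereas Rbpms overlaps.

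After ONC, 7 of the 10 RGC genes fell in WT libraries: Nefl, Nefm, Nefh, Sncg, Thy1, Pou4f1 and Slc17a6. Rbpms, Pou4f2 and Gap43 did not pass the test, and 0 of the 10 rose. Over all genes tested, 10.5% were called lower in this comparison and 7.55% higher (limma, adjusted p under 0.05 and a log2 change over 0.58 in size). The median log2 change of the 10 genes was -2.69, or -2.41 when genes at 0 in every WT ONC library were set at their bound, against -0.10 for all genes tested. When the libraries were instead rescaled to equal totals, an alternative chosen after seeing the data, 767 genes were called higher and 2794 lower, against 1292 and 1801, and the median of all genes moved to -0.39, with 7 of the 10 RGC genes again called lower. In bulk libraries, fewer cells of a type and less RNA per cell cannot be told apart.

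The neurofilament genes encode the light, medium and heavy chains of the axonal intermediate filament. Nefl stood at 9412, 7682, 10609 and 12052 normalized counts in the naïve WT libraries and at 365, 1896 and 1957 after ONC. All 3 ONC libraries were below the lowest naïve one, and replicate 1 was lower than the others. On the log2 scale Nefl fell by 3.15 ± 0.38 (SE), 8.85-fold (adjusted p = 1.12e-05). Nefm went from 501, 427, 542 and 493 to 18.8, 186 and 91.2 normalized counts (log2 change -2.81 ± 0.53, adjusted p = 0.000822). Nefh was 149, 154, 148 and 176 in naïve and 0, 28.8 and 35.1 in ONC libraries (log2 change -3.94 ± 0.84, adjusted p = 0.00251). Of the ONC libraries, replicate 1 was at 0 for Nefh and lowest for all 3 chains. Without that library the log2 changes were -2.35 for Nefl, -1.90 for Nefm and -2.265 for Nefh, and all 3 remained called.

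Sncg encodes gamma-synuclein, a small presynaptic and axonal protein enriched in RGCs. It was 211, 198, 209 and 284 normalized counts in naïve WT libraries and 45.6, 81.7 and 73.7 after ONC, with no overlap (log2 change -1.76 ± 0.33, adjusted p = 0.000686). Thy1, a surface glycoprotein of RGCs that T cells and other neurons also carry, was 188, 123, 132 and 159.7 in naïve and 55.0, 73.6 and 3.51 in ONC libraries (log2 change -2.49 ± 0.83, adjusted p = 0.0402). The Thy1 groups did not overlap, but the fall rested on the lowest library, replicate 3, without which the log2 change was -1.21 and the adjusted p = 0.294. Thy1 also lost its call without any 1 of the 4 naïve libraries (adjusted p = 0.0637 to 0.0853). The 7 T cell genes examined summed to 0.000195 to 0.000422% of a naïve WT and 0.000338 to 0.0011% of a WT ONC library, and 1 of them rose. Rbpms encodes an RNA-binding protein restricted to RGCs among retinal neurons but also made outside the neural retina. Its values were 64.8, 76.0, 46.5 and 82.7 in naïve and 73.8, 127 and 304 in ONC libraries, which overlap (log2 change 1.09 ± 0.54, adjusted p = 0.158). Rbpms had the only positive difference among the 10. The 6 mural cell genes examined summed to 0.00163 to 0.00574% in naïve WT and 0.0012 to 0.0054% in WT ONC libraries, and 0 of them were called.

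The transcription factors Pou4f1 and Pou4f2 (Brn3a and Brn3b) lay near the detection limit. Pou4f1 was 21.3, 4.09, 48.1 and 15.8 normalized counts in naïve WT libraries and 0 in all 3 ONC libraries, at least 6.1-fold lower against a floor of 3.66 (3 reads, mean of the group; adjusted p = 0.0153). Pou4f1 lost this call without naïve replicate 3 (adjusted p = 0.0514) or ONC replicate 1 (0.0572). Pou4f2 was 0, 5.72, 9.29 and 16.7 in naïve libraries and likewise 0 in all 3 ONC libraries, at least 2.17-fold lower, and did not pass (adjusted p = 0.192). Slc17a6, the vesicular glutamate transporter VGLUT2, was 138, 124, 177 and 176 in naïve and 0, 97.8 and 55.0 in ONC libraries (log2 change -3.11 ± 1.06, adjusted p = 0.0455). The groups of Slc17a6 did not overlap, yet its fall rested on ONC replicate 1, at 0. Without it the log2 change was -1.04 and the adjusted p = 0.464, and without any 1 of the 4 naïve libraries the adjusted p of Slc17a6 was 0.072 to 0.0873. Gap43, a growth cone protein linked to axon growth, was 263, 342, 326 and 362 in naïve and 122, 270.4 and 199 in ONC libraries (log2 change -0.77 ± 0.34, adjusted p = 0.116). Of the Gap43 values, the highest ONC library lay within the naïve range. The count of 7 called genes dropped to 4 without naïve replicate 3, and the 4 were Nefl, Nefm, Nefh and Sncg.

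In the libraries labelled KO, 6 of the 10 RGC genes fell after ONC: Nefl, Nefm, Sncg, Thy1, Pou4f1 and Slc17a6. Nefh, Rbpms, Pou4f2 and Gap43 did not pass, and 0 of the 10 rose, in a comparison in which 11% of all genes were called lower and 12.7% higher. The median log2 change of the 10 genes was -2.55 against -0.12 for all genes tested. After rescaling to equal totals, 1234 genes were called higher and 3525 lower, against 2165 and 1878, the median of all genes was -0.49, and 7 of the 10 were called lower. Naïve and ONC libraries are separate for each genotype, so the log2 changes of KO and WT share no library. Their p-values are not independent, because the spread was estimated from all 23 libraries together.

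Nefl was 11915, 9296, 11634 and 10173 normalized counts in KO naïve libraries and 1308, 1277, 1828 and 2132 after ONC, again with every ONC library below every naïve one (log2 change -2.74 ± 0.35, 6.69-fold, adjusted p = 2.06e-05). Nefm went from 653, 827, 764 and 864 to 104, 81.6, 203 and 297 (log2 change -2.35 ± 0.49, adjusted p = 0.00148). Nefh was 127, 265, 108 and 235 in naïve and 73.0, 56.6, 75.0 and 68.5 in ONC libraries. These Nefh groups did not overlap either, but the difference did not pass (log2 change -1.32 ± 0.78, adjusted p = 0.222).

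Sncg showed the largest shift relative to its error in the KO libraries, from 419, 729, 657 and 726 to 71.8, 56.6, 75.0 and 124 normalized counts (log2 change -2.96 ± 0.30, 7.79-fold, adjusted p = 2.29e-06). Thy1 was 124, 230.0, 120.1 and 303 in naïve and 14.4, 26.1, 4.29 and 93.5 in ONC libraries (log2 change -3.08 ± 0.77, adjusted p = 0.00562). Rbpms overlapped between the groups, with 248, 157, 149 and 56.1 in naïve and 254, 135, 71.8 and 111 in ONC libraries (log2 change -0.0639 ± 0.50).

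Pou4f1 was 18.8, 58.7, 109 and 87.5 normalized counts in KO naïve and 0, 25.0, 2.14 and 16.7 in KO ONC libraries, which overlap (log2 change -3.24 ± 1.06, adjusted p = 0.0286). Pou4f2 was 31.8, 9.65, 0 and 4.25 and 0, 0, 0 and 5.55 (log2 change -2.03 ± 1.27, adjusted p = 0.249), so that only 1 of 7 ONC libraries of either genotype held any Pou4f2 read. Slc17a6 went from 400.0, 334, 648 and 735 to 40.7, 15.2, 174 and 186 with no overlap (log2 change -2.88 ± 0.98, adjusted p = 0.0365). Gap43 was 436, 484, 451 and 483 in naïve and 195, 208, 347 and 405 in ONC libraries (log2 change -0.75 ± 0.32, adjusted p = 0.0872), again without overlap. Slc17a6 lost its call without any 1 of the KO naïve libraries (adjusted p = 0.0568 to 0.0925) and without KO ONC replicate 1 (0.0886) or 2 (0.147). Pou4f1 lost it without KO naïve replicate 2, 3 or 4 (0.0628, 0.0581 and 0.0774) and without KO ONC replicate 1 (0.115) or 3 (0.0825). When the libraries labelled KO with more than 100 normalized counts of Spp1 were left out, KO ONC kept 1 library, KO naïve 3 and KO IOP 2. That 1 KO ONC library, replicate 3, is then assumed to vary like the other groups, so the values describe that library. The log2 changes were -3.21 for Sncg (adjusted p = 0.0107), -5.27 for Thy1 (adjusted p = 0.0446) and -2.50 for Nefl (adjusted p = 0.0717).

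**Figure D2:**
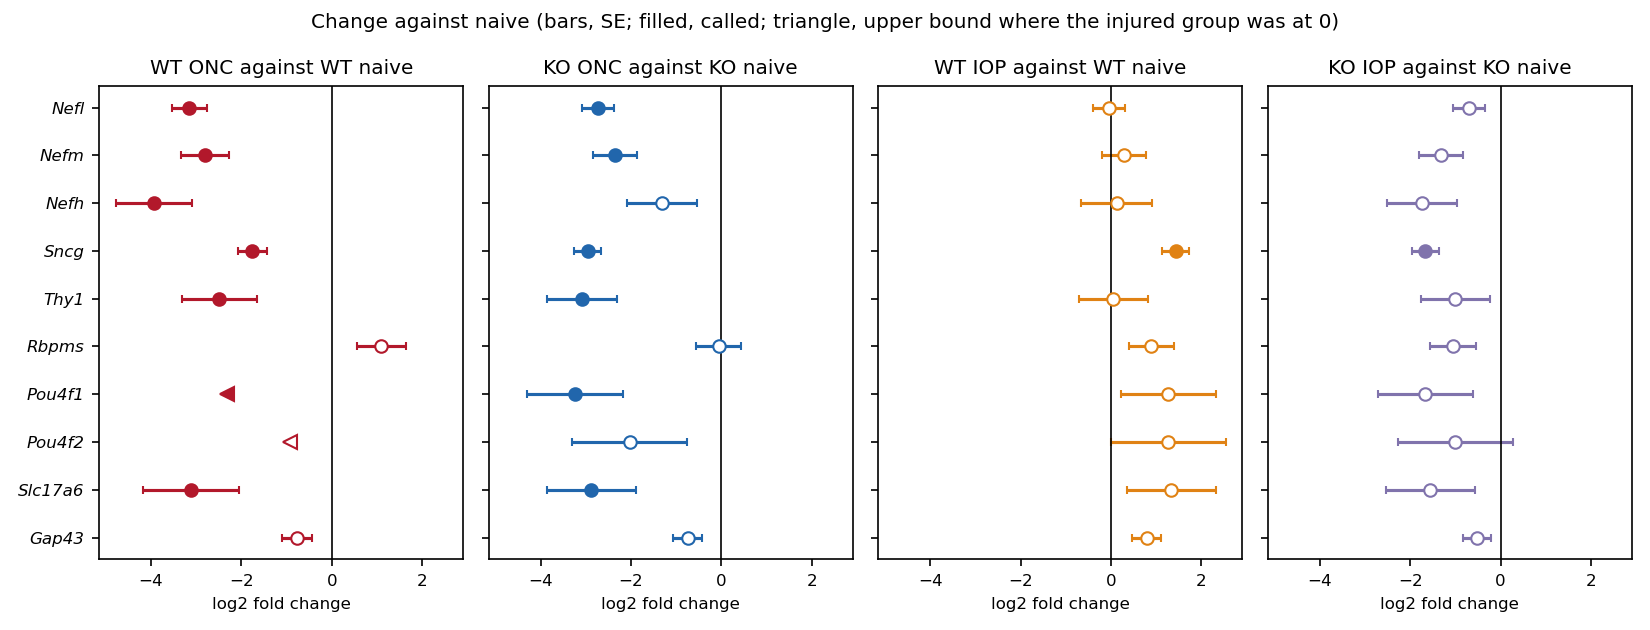
Log2 fold change of each gene against the naïve libraries of the same genotype, with bars for the SE, filled points for called genes and triangles at the bound for genes at 0 in every WT ONC library. Nefl, Nefm and Sncg lie left of 0 after ONC in both genotypes, and Sncg is the only filled point after IOP elevation, to the right in WT and to the left in libraries labelled KO.

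Genes of other cells moved in the same comparisons. Of 10 amacrine cell genes, 7 fell after ONC in WT (median log2 change -2.41) and 6 in KO (-1.16). Of 7 genes used by all neurons, 5 fell in each genotype (-2.04 in WT and -1.41 in KO). The median of the 10 RGC genes in WT, with bounds, was likewise -2.41, and in KO it was -2.55. Of 13 rod genes, 2 fell in WT (median log2 change -0.70) and 11 in KO (-1.28), and of 10 bipolar cell genes 7 fell in KO. In WT 0 of these 10 were called, with a median of 0.12 that turned to -0.19 with 2 lower calls after rescaling to equal totals. Of the 12 microglia genes, 2 rose in WT and 9 in KO, and the WT median of 0.24 turned to -0.07 after that rescaling and to -0.11 after quantile normalization. Amacrine cell genes summed to 0.153 to 0.174% of a naïve WT and 0.0109 to 0.0528% of a WT ONC library, with Chat at 0 in 1 and Th at 0 in 2 of all 23 libraries. Rod genes, none of them at 0, summed to 1.53 to 1.87% of a naïve WT and 0.534 to 1.98% of a WT ONC library, and to 1.23 to 3.86% and 0.75 to 1.09% in KO. Their part in the RGC result was not tested beyond the comparisons that follow. Summed over the 10 RGC genes, the share of the library was 0.0381 to 0.0534% in naïve WT, 0.00184 to 0.0108% in WT ONC, 0.0557 to 0.0642% in KO naïve and 0.00597 to 0.0127% in KO ONC libraries. Taken as a percentage of the rod sum in the same library, the RGC sum was 2.06 to 3.49% in naïve WT and 0.345 to 1.33% in WT ONC. It was 1.67 to 4.55% in KO naïve and 0.625 to 1.3% in KO ONC libraries. The RGC sum relative to rods, which is mostly Nefl, thus did not overlap in either genotype. Without Nefl the sum of the other 9 genes was 0.327 to 0.446% of the rod sum in naïve WT and 0.16 to 0.372% in WT ONC, and 0.325 to 0.934% in KO naïve and 0.228 to 0.495% in KO ONC libraries, which overlap in both genotypes. In WT only ONC replicate 3 reached the naïve range. Rbpms made up 304 of the 761.5 normalized counts of that sum there, and ONC replicates 1 and 2 were at 0.16 and 0.171%. A further 16 RGC genes summed to 2.26 to 2.79% of the rod sum in naïve WT and 0.957 to 1.2% in WT ONC, without overlap, and to 1.56 to 3.38% in KO naïve and 1.23 to 2.34% in KO ONC, with overlap. Amacrine cell genes summed to 8.27 to 11.4% of the rod sum in naïve WT and 2.04 to 5.1% in WT ONC. For the genes used by all neurons the ranges were 14.4 to 18% and 7.03 to 7.8%. Neither pair overlapped in WT, and both overlapped in KO. With the mean log2 level of the rod genes as a covariate, 5 of the 10 genes were called in WT (Nefl, Nefm, Nefh, Sncg and Pou4f1) and 2 in KO (Nefl and Sncg). Of the variance of that rod mean, 58.42% lay between the groups.

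**Figure D3:**
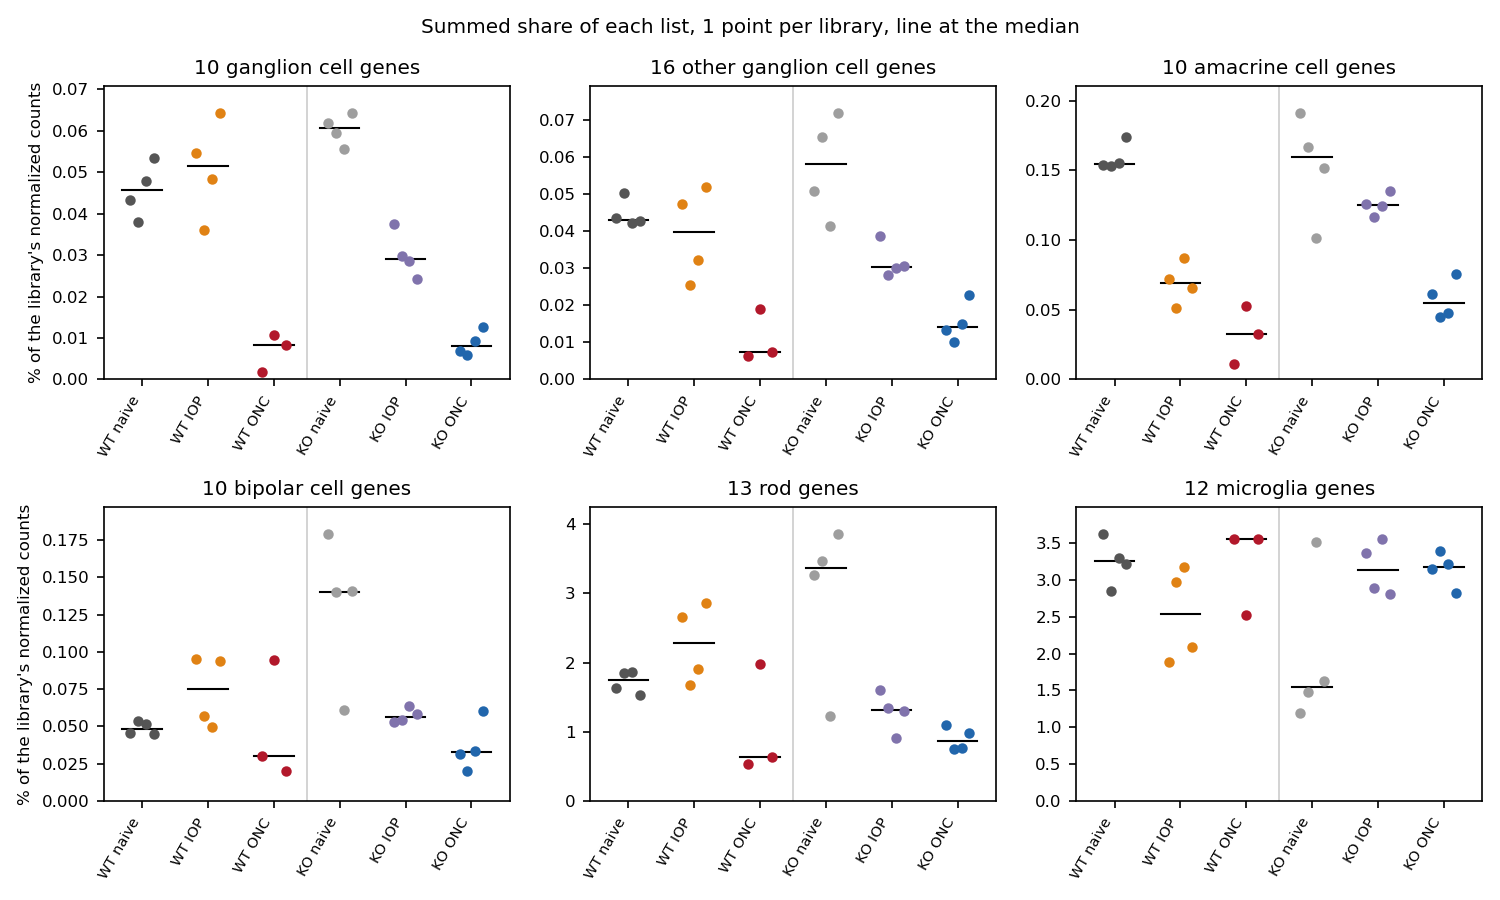
Summed share of each list in a library's normalized counts (%), 1 point per library with a line at the group median. The RGC and amacrine sums of all ONC libraries lie below those of all naïve libraries of the same genotype, while WT ONC replicate 2 lies above all naïve WT libraries for rod and bipolar genes and the other WT ONC libraries lie below them.

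Further genes of RGCs and axons were counted from lists that do not include the 10. Of 16 other RGC genes, 11 fell after ONC in WT (median log2 change -1.87, or -1.76 with genes at 0 set at their bound) and 11 in KO (-1.53), and 0 rose. Whether their RNA came from RGCs or from other neurons was not tested, and 7 of 10 amacrine cell genes fell in WT too. The largest falls in WT were those of Ebf1, a transcription factor, from 476, 572, 378 and 432 to 2.68, 119 and 60.8 normalized counts (log2 change -3.94 ± 0.69, adjusted p = 0.000414), and of the nicotinic receptor subunits Chrna6 (-3.28 ± 0.47, adjusted p = 5.63e-05) and Chrnb3 (-3.01 ± 0.49, adjusted p = 0.000194). In KO they were those of Rbpms2 (-4.35 ± 0.92, adjusted p = 0.00169), of Nrn1, which encodes the neurite growth protein neuritin (-2.53 ± 0.39, adjusted p = 0.000112), and of Chrna6 (-2.04 ± 0.43, adjusted p = 0.00174). Rbpms2, the paralog of Rbpms, is likewise an RNA-binding protein.

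Of 12 axon and microtubule genes, 9 fell in WT (median -1.65) and 7 in KO (-1.21). They were led in WT by Ank3, the ankyrin of the axon initial segment (-2.36 ± 0.57, adjusted p = 0.00683), Map1b (-2.07 ± 0.43, adjusted p = 0.00203) and the axonal kinesin Kif5a (-2.01 ± 0.37, adjusted p = 0.000704). In KO they were led by the microtubule proteins Map1a (-1.84 ± 0.28, adjusted p = 9.78e-05) and Mapt (-1.48 ± 0.23, adjusted p = 0.000122) and by Dpysl5 (-1.41 ± 0.35, adjusted p = 0.00548).

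Of 9 markers of RGC subtypes, 1 fell in WT and 3 in KO after ONC, and 0 rose, where 10.5% and 11% of all genes were called lower. Cartpt, a neuropeptide gene of direction-selective RGCs, fell in WT (-1.97 ± 0.40, adjusted p = 0.00169) and in KO (-1.31 ± 0.37, adjusted p = 0.0133). Kcng4, which marks alpha RGCs, fell in KO from 1545, 1333, 908 and 1147 to 406, 262, 327 and 575 normalized counts (-1.68 ± 0.26, adjusted p = 0.00013). Its naïve WT values were 480, 628, 492 and 353, all below the KO naïve ones, and the KO ONC values overlap them. Of the 9 subtype genes, 1 was called higher in KO naïve than in WT naïve libraries. Kcng4 and Cartpt are not restricted to RGCs in the retina.

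Some genes that axotomized RGCs are known to switch on were higher. Of 12, 3 rose after ONC in WT (Ecel1, Sprr1a and Atf3) and 4 in KO (the same 3 and Klf6), and 0 fell. Ecel1, a membrane peptidase induced in injured neurons, was 15.98, 8.17, 0.845 and 0 normalized counts in naïve WT libraries and 79.2, 566 and 242 in WT ONC libraries, all above the naïve range (log2 change 5.76 ± 1.14, adjusted p = 0.00129). In KO it went from 4.9, 21.7, 0 and 4.25 to 360.3, 71.8, 285 and 160.2 (log2 change 5.18 ± 1.05, adjusted p = 0.00124). Sprr1a, an axon growth-associated gene, was 0 in all 4 naïve WT libraries and 14.8, 21.9 and 15.2 in WT ONC, at least 6.62-fold higher (adjusted p = 0.00138). Atf3, a stress transcription factor that many cells express, microglia included, rose by 0.97 ± 0.26 in WT (adjusted p = 0.0123) and by 2.07 ± 0.24 in KO (adjusted p = 6.73e-06). The median of the 12 genes was -0.08 in WT and 0.20 in KO, against -0.10 and -0.12 for all genes tested, and the KO median turned to -0.18 after rescaling to equal totals, with 3 higher and 2 lower calls in KO and 2 and 1 in WT.

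**Figure D4:**
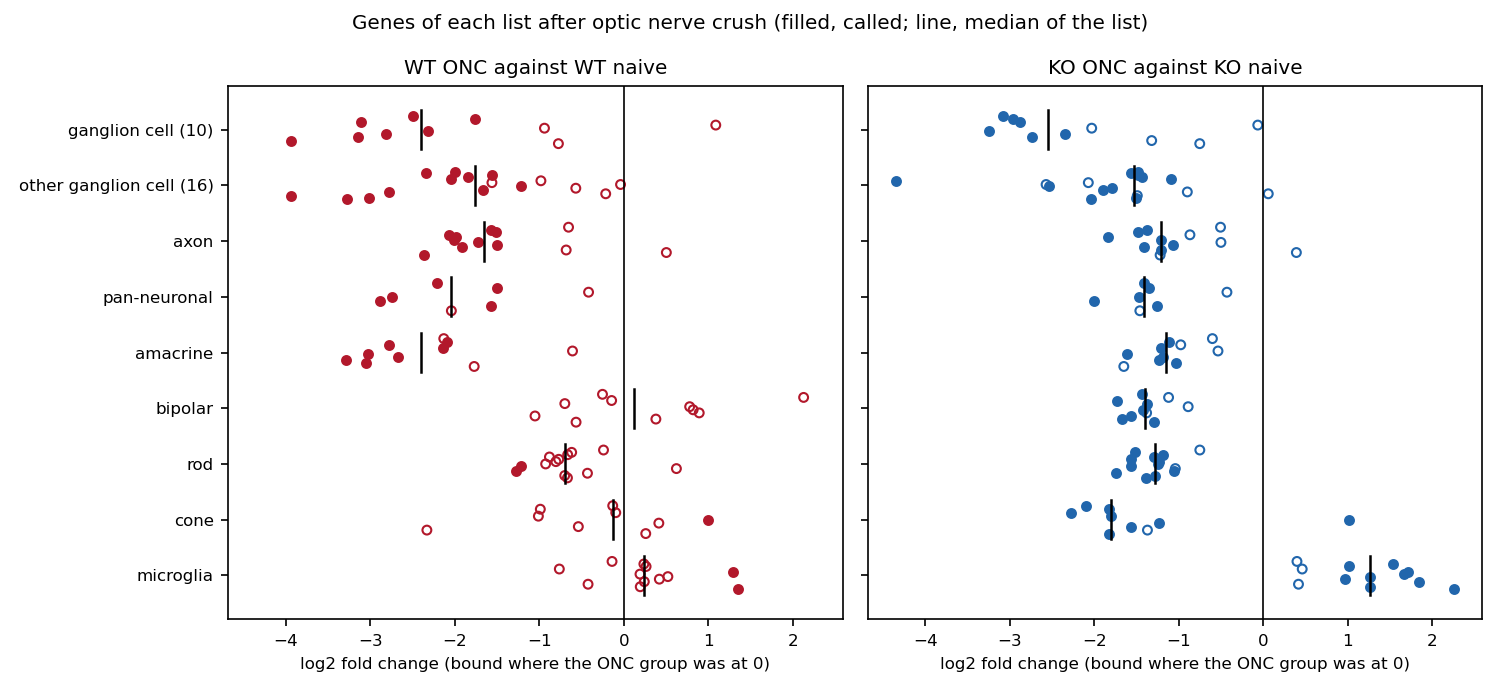
Log2 fold change after ONC of each gene of 9 lists, with filled points for called genes and a line at each list's median. The ganglion cell medians are -2.41 in WT, with genes at 0 set at their bound, and -2.55 in KO. The amacrine median is -2.41 in WT and -1.16 in KO, and the bipolar median is 0.12 in WT and -1.40 in KO.

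After IOP elevation, Sncg was the 1 gene of the 10 that changed in WT. It rose and 0 of the 10 fell, where 0.842% of all genes were called higher and 0.719% lower. After rescaling to equal totals 119 genes were called higher and 67 lower, against 144 and 123. This comparison shares its naïve libraries with that after ONC. Sncg was 809.7, 463, 438 and 810.1 normalized counts after IOP elevation, above every naïve WT library (log2 change 1.43 ± 0.30, 2.7-fold, adjusted p = 0.0153). The highest values were those of replicates 1 and 4, the libraries rich in lens RNA. Without these 2 libraries the log2 change was 1.01 and the adjusted p = 0.438. It also lost its call without replicate 1 (adjusted p = 0.0826), without replicate 4 (0.0764) and without naïve replicate 1, 2 or 3 (0.0506, 0.0546 and 0.0571).

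The neurofilament genes did not pass the test. Nefl was 9377, 7347, 9895 and 11775 normalized counts, within the naïve range but for 1 library just below it (log2 change -0.051 ± 0.35). Nefm was 762, 469.7, 407 and 857 (log2 change 0.28 ± 0.49) and Nefh 292, 94.2, 133 and 230.4 (log2 change 0.12 ± 0.78), both overlapping the naïve libraries. Thy1 was 191, 228, 70.7 and 183 (log2 change 0.0541 ± 0.77).

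Slc17a6 reached 268, 302, 608 and 433 normalized counts, above all naïve WT libraries, and Rbpms 212, 93.1, 141 and 83.3, also without overlap. Neither passed the test (log2 changes 1.33 ± 0.98 and 0.89 ± 0.50, adjusted p = 0.606 and 0.456). Gap43 was 792, 289, 493 and 836 (log2 change 0.79 ± 0.32, adjusted p = 0.27), highest in the same replicates 1 and 4. Pou4f1 was 89.8, 38.3, 7.54 and 103 and Pou4f2 11.9, 1.09, 30.2 and 47.9, both overlapping naïve values (adjusted p = 0.655 and 0.718). The median log2 change of the 10 genes was 0.84, against -0.02 for all genes tested, and 9 of the 10 estimates were positive. Some lists of other cells leaned the same way. All 13 rod estimates were positive (median 0.43), and so were 8 of the 10 bipolar estimates (median 0.48). Others leaned down, with all 10 amacrine estimates negative, 6 of 7 for genes used by all neurons and 11 of 12 for axon genes. Whether the RGC lean is separate from that of rod and bipolar genes was not tested.

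Among the other RGC genes, the median log2 change after IOP elevation in WT was 0.03, with 9 of 16 estimates positive and 7 negative. Of these 16, 1 rose. It was Nrn1, from 55.9, 53.1, 81.1 and 90.1 to 231, 139, 214 and 248 normalized counts (log2 change 1.56 ± 0.39, adjusted p = 0.0437). With quantile normalization or rescaling to equal totals 0 of the 16 were called. Chrna6 (546 to 1205 against 1880 to 2704) and Chrnb3 (532 to 1239 against 1552 to 1923) lay below all naïve WT libraries, though neither was called. Of the 12 injury genes, 2 rose, Sprr1a from 0 in all naïve libraries to 11.9, 13.1, 9.43 and 8.86 (at least 4.15-fold higher, adjusted p = 0.0177) and Atf3 (1.04 ± 0.24, adjusted p = 0.0283). Of the axon genes 0 of 12 were called (1 at an unadjusted p under 0.05), and of the subtype genes 0 of 9 (1 at an unadjusted p under 0.05). Of 10 amacrine cell genes 3 fell (1 after rescaling to equal totals), of 13 rod genes 0 were called, and of 8 lens genes 7 rose.

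In the libraries labelled KO, 1 of the 10 genes fell after IOP elevation and 0 rose, where 2.81% of all genes were called lower and 5.06% higher. After rescaling to equal totals 564 genes were called higher and 730 lower, against 866 and 481, and the median of all genes was -0.34. That gene was again Sncg, at 171, 226, 176 and 210.0 normalized counts after IOP elevation and with all 4 libraries below every KO naïve one (log2 change -1.66 ± 0.30, 3.16-fold, adjusted p = 0.00663). With the rod mean as a covariate its log2 change was -1.43 and the adjusted p = 0.164, and without the libraries high in Spp1 it was -2.01 with an adjusted p = 0.0548.

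Nefl was 8446, 6385, 6690.4 and 5169 and Nefm 418, 297, 351 and 209 normalized counts, both below all KO naïve libraries, but neither passed (log2 changes -0.70 ± 0.35 and -1.32 ± 0.49, adjusted p = 0.204 and 0.0885). Nefh was 120.1, 41.2, 60.8 and 21.2 (adjusted p = 0.154), Thy1 98.8, 86.4, 73.2 and 102 (adjusted p = 0.418) and Gap43 327, 405, 272 and 302 (adjusted p = 0.299). Rbpms was 61.1, 51.2, 97.9 and 56.5 and Slc17a6 329, 253, 67.0 and 152 (adjusted p = 0.18 and 0.322). Pou4f1 was 9.16, 4.02, 25.8 and 82.8 and Pou4f2 0, 0, 37.1 and 2.02, with 1 library high for each. The median log2 change of the 10 was -1.18 against -0.12 for all genes tested.

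Of the other RGC genes 3 of 16 fell in KO after IOP elevation, namely Tppp3, a tubulin-binding protein (-1.27 ± 0.37, adjusted p = 0.0391), and the stathmins Stmn2 (-1.02 ± 0.31, adjusted p = 0.0471) and Stmn3 (-0.83 ± 0.25, adjusted p = 0.0429). Of the subtype genes 3 of 9 fell, among them Foxp2 (-1.62 ± 0.44) and Kcng4 (-1.08 ± 0.26), and so did 1 of 12 axon genes, Map1a (-1.28 ± 0.28, adjusted p = 0.0159). Kcng4 was 527, 798, 611 and 415 normalized counts in KO IOP libraries, which overlap the naïve WT values. Injury genes Atf3 (0.90 ± 0.24, adjusted p = 0.0299) and Klf6 (0.89 ± 0.24, adjusted p = 0.0311) rose, 2 of 12. In the same comparison 2 of 13 rod genes and 2 of 10 bipolar genes fell, and 6 of 12 microglia genes rose and 1 fell. All 13 rod and all 10 bipolar estimates were negative, each list with a median of -0.97. In limma 12 of the 13 rod genes had an unadjusted p under 0.05, against 4 of the 10 RGC genes. The amacrine median was -0.20, with 4 estimates positive and 6 negative.

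ONC and IOP elevation were also set against each other. In WT, 9 of the 10 RGC genes were lower after ONC than after IOP elevation, where 12% of all genes were called lower, and Rbpms (log2 difference 0.20 ± 0.54) was the exception. After rescaling to equal totals 857 genes were called higher and 3285 lower, and after upper-quartile rescaling 1168 and 2602, against 1659 and 2056. The log2 differences were -3.09 ± 0.38 for Nefl, -3.09 ± 0.53 for Nefm, -4.07 ± 0.84 for Nefh, -3.20 ± 0.33 for Sncg and -4.44 ± 1.06 for Slc17a6. Gap43 differed by -1.56 ± 0.34 (adjusted p = 0.00413) and Thy1 by -2.54 ± 0.83 (adjusted p = 0.0331). Pou4f1 was at least 16.3-fold and Pou4f2 at least 6.21-fold lower (adjusted p = 0.00328 and 0.048). Thy1 lost this call without WT IOP replicate 1, 2 or 4 or WT ONC replicate 3 (adjusted p = 0.063 to 0.257), Slc17a6 without WT ONC replicate 1 (0.0599), and Pou4f2 in each fit that left out 1 library other than WT IOP replicate 2 (0.0648 to 0.137). Without WT IOP replicates 1 and 4, 3 of the 10 were called. In libraries labelled KO, 2 of the 10 were lower after ONC than after IOP elevation, where 1.05% of all genes were called lower. After rescaling to equal totals 191 genes were called higher and 284 lower, against 233 and 179. These were Nefl (-2.04 ± 0.35, adjusted p = 0.00419) and Sncg (-1.30 ± 0.30, adjusted p = 0.0228). Without the libraries high in Spp1, 1 KO ONC and 2 KO IOP libraries are left, and the 0 calls of that fit say nothing about the difference. Leaving out KO IOP replicate 2 or 4 or KO ONC replicate 1, 2 or 3 also left 1 call.

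Genotypes were compared within each condition. In naïve retinas 1 of the 10 genes was higher in KO than in WT, where 0.0702% of all genes were called higher. It was Sncg, at 419, 729, 657 and 726 normalized counts in KO against 211, 198, 209 and 284 in WT, with no overlap (log2 difference 1.47 ± 0.30, adjusted p = 0.0358). It lost the call without any 1 of the 4 naïve WT libraries, without KO naïve replicate 2 or 4, and with the mean of the rod genes as a covariate (adjusted p = 0.095). Of these KO libraries, 3 held fewer microglia counts and more rod counts than WT naïve, and replicate 3 did not. Their part in the result was not tested further. Slc17a6, Nefm and Gap43 did not overlap between the genotypes either, with adjusted p-values of 0.41, 0.539 and 0.434.

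After IOP elevation 1 of the 10 genes was lower in KO than in WT, where 1.64% of all genes were called lower. This was Sncg again (log2 difference -1.63 ± 0.30, 3.09-fold, adjusted p = 0.00545). Without WT IOP replicates 1 and 4 its difference was -1.21 (adjusted p = 0.277), and without WT IOP replicate 2, Gap43 (-1.09) was called in addition. After ONC 0 of the 10 differed between genotypes in limma, 3 had an unadjusted p under 0.05, and edgeR and DESeq2 also called 0. Of all genes, 0.0877% were called. The largest difference was that of Nefh (2.75 ± 0.84, adjusted p = 0.276), and Nefl differed by 0.53 ± 0.38. Without WT ONC replicate 2, Nefh (3.52, adjusted p = 0.0306) and Nefm (1.83, adjusted p = 0.0453) were called higher in KO.

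The change after ONC was tested against genotype directly. The interaction was called for 0 of the 10 genes by limma, edgeR and DESeq2 (2 at an unadjusted p under 0.05 in limma) and for 0.0702% of all genes. For Nefl it was 0.40 ± 0.52 and for Sncg -1.20 ± 0.44 on the log2 scale (adjusted p = 0.801 and 0.263). For the change after IOP elevation the interaction was called for 1 of the 10 genes, where 8.75% of all genes were called (829 higher and 667 lower, or 603 and 809 after rescaling to equal totals). Sncg rose in WT and fell in KO, and the difference of the log2 changes was -3.09 ± 0.42 (adjusted p = 0.000474). This held in all 16 alternatives and in all 16 fits that left out 1 library. It was -2.67 without WT IOP replicates 1 and 4 (adjusted p = 0.0113) and -3.44 without the KO libraries high in Spp1 (adjusted p = 0.00715). All 10 estimates of this interaction were negative, with a median of -1.90 against -0.08 for all genes tested, and 4 had an unadjusted p under 0.05. Without WT IOP replicate 2, Gap43 (-1.62) was called as well. Of the 13 rod genes 3, of the 10 bipolar genes 4 and of the 8 lens genes 8 were called lower in the same interaction, and of the 12 microglia genes 6 were called higher and 1 lower. All estimates were also negative for the 13 rod genes (median -1.35), the 10 bipolar genes (-1.28) and 5 Müller glia genes (-1.32). Of the 13 rod genes, 12 had an unadjusted p under 0.05 in limma. Of the 10 amacrine cell genes, 9 estimates were positive (median 0.82).

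The 10 genes differed in how closely they followed one another over the 23 libraries. The correlation of each gene with the mean of the other 9 (Pearson, log2 values) was 0.947 for Nefm, 0.921 for Sncg, 0.888 for Nefl, 0.857 for Gap43, 0.815 for Slc17a6, 0.802 for Nefh, 0.722 for Pou4f1, 0.601 for both Pou4f2 and Thy1, and -0.0956 for Rbpms. After removal of the group means it was 0.835 for Nefm, 0.793 for Nefl and 0.707 for Sncg, but -0.0695 for Thy1 and 0.0391 for Rbpms. The libraries share their sort and carry other neuronal RNA as well, so these values are descriptions. Outside the 10, the genes whose pattern was most like the mean of the set were Tubb3, neuronal beta-tubulin (Pearson 0.935 over 23 libraries), Hnrnph3 (0.927), Elovl6 (0.918), Gabarapl1 (0.917) and Arg2 (0.915).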

How the data were processed

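RNA-seq was measured in 23 libraries of GFP+ microglia sorted from mouse retinas. Per the labels, RNA was extracted with an RNeasy kit and libraries were made with a SMARTER kit. The authors mapped reads to GRCm38 with salmon according to their methods, whereas the submitters' processing notes name STAR, and DESeq2. The deposited values are a signal, normalized counts in which each gene's read count is divided by a size factor of its library. Dividing by the value of 1 read returned whole reads (100.0% of values within 0.01 reads), which were used as counts for 21 libraries. KO IOP replicates 2 and 4, whose size factors lie near 1, entered no count model.

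For testing, limma 3.58.1 was run under R 4.3.3 on log2(normalized count + 1), with a mean-variance trend, 6 groups and 0 covariates, over 11 comparisons and the 17102 genes that reached 10 normalized counts in 3 or more libraries. A gene was called where its Benjamini-Hochberg adjusted p, taken over all genes tested, was under 0.05 and its log2 change exceeded 0.58 in size. Errors of fold changes are SEs on this log2 scale, which understates changes of low genes. Symbols came from GENCODE M21 and matched 34732 of 35825 identifiers, and 4 genes of the lists were not analysed here.

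The members and gene lists were chosen with earlier results of these data known. Named were the 10 members in every comparison, Spp1, for each list of other RGC, subtype, injury and axon genes the 3 called genes with the largest change in each direction after ONC or IOP elevation, and the 5 genes closest in pattern to the members. Klf6 in KO ONC was named after its values were seen, and 1 gene that the rule names is not reported here. Libraries of a group correlated at 0.953 to 0.984 (Pearson, log2 values), and 0 pairs were identical.

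The following alternatives were tried: pseudocounts of 0.5 and 5, testing all genes or those with a mean of 50 or more, rescaling by the upper quartile, quantile normalization, a replicate block, the mean of the rod genes as covariate, fitting only the groups compared, the quasi-likelihood test of edgeR 4.0.16, DESeq2 1.42.0 (both on recovered reads), dropping the fold threshold, and omitting 1 library at a time. Rescaling to equal totals, the mean of the microglia genes as covariate and omission of several libraries together were chosen after seeing the data. The procedure was tested on simulated data. Python 3.11.15 with pandas 2.3.3 and numpy 2.4.6 built the tables, and matplotlib 3.10.9 drew the figures.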

Additional observations from a re-analysis of the deposited data

Results flagged for a closer look

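The change of Sncg after IOP elevation differed between genotypes, with an interaction of -3.09 on the log2 scale, as a test of the difference itself. It was 1 of the 10 genes, near the 8.75% of all genes called. Sncg in KO IOP libraries (171 to 226) overlapped naïve WT (198 to 284), and KO naïve (419 to 729) overlapped WT IOP (438 to 810). KO naïve libraries other than replicate 3 held fewer microglia and more rod counts than naïve WT, and their part was not tested. Within groups of 4 libraries, 3 single values lay far from the others of their group. Sncg was 284.2 normalized counts in WT naïve replicate 4, against 197.7 to 211.3 in the other naïve WT libraries, and without this library the fall of Sncg after ONC was -1.65 on the log2 scale. Pou4f2 was 37.12 in the library labelled KO IOP replicate 3, against 0 to 2.019 in the other KO IOP libraries. Pou4f2 was 5.554 in the library labelled KO ONC replicate 4, against 0 in the others. Chance gives about 1 such value in 20 sets of 4 continuous values, and 55 sets, each 1 gene in 1 group, were examined. In the set of Pou4f2 in KO ONC any value above 0 would have been flagged, because the others were at 0.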

How the results depend on the processing

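Counts of called RGC genes moved under some settings. With quantile normalization 4 of 10 were called in WT ONC against naïve (7 as reported) and 3 in KO IOP against naïve (1). In fits of the compared groups alone the counts were 4 in WT ONC against naïve, 2 in WT IOP against naïve (1), 0 in KO IOP against naïve, 3 in WT ONC against WT IOP (9), 1 in KO ONC against KO IOP (2), 0 in KO against WT naïve (1) and 4 in the interaction with IOP elevation (1). With the rod covariate they were 2 in KO ONC against naïve (6), 0 in KO IOP against naïve, 4 in WT ONC against WT IOP and 0 in KO against WT naïve. With the microglia covariate they were 2 in KO ONC against naïve, 1 in KO ONC against KO IOP and 0 in KO against WT naïve. Without libraries labelled KO with Spp1 over 100 they were 2 in KO ONC against naïve, 0 in KO IOP against naïve, 0 in KO ONC against KO IOP and 0 in KO against WT naïve, with 1 KO ONC library left that is assumed to vary like the other groups. Without WT IOP replicates 1 and 4 they were 0 in WT IOP against naïve, 3 in WT ONC against WT IOP and 0 in KO against WT IOP (1). edgeR called 0 in KO IOP against naïve, 1 in KO ONC against KO IOP, 0 in KO against WT naïve and 0 in KO against WT IOP. DESeq2 called 1 in KO ONC against KO IOP and 2 in the interaction with IOP elevation. Both rest on 2 KO IOP libraries. The cause of these shifts was not tested.

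Leaving out 1 library gave 4 to 8 calls in WT ONC against naïve, 0 to 1 in WT IOP against naïve, 4 to 7 in KO ONC against naïve, 1 in KO IOP against naïve, 7 to 8 in WT ONC against WT IOP, 1 to 3 in KO ONC against KO IOP, 0 to 1 in KO against WT naïve, 1 to 2 in KO against WT IOP, 0 to 2 in KO against WT ONC, 0 in the interaction with ONC and 1 to 2 in that with IOP elevation. Across all of these fits, 0 called members changed direction. Sncg, Nefl and Nefm in WT ONC passed all 14 alternatives and all 7 fits without a library, Slc17a6 passed 5 and 2, and Thy1 passed 7 and 2.

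Replicate numbers did not pair the libraries. Of 55 pairs of libraries with the same number, 10 had deviations from the group means correlated over 0.1, with a range of -0.253 to 0.23. With the replicate block 6 genes were called in WT ONC against naïve and 8 in WT ONC against WT IOP, and the other counts did not move.

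Counts over all genes also moved. Over the settings other than leaving out 1 library, WT ONC against naïve went from 3093 to as few as 1749 (compared groups alone), WT IOP against naïve from 267 to 15 (without WT IOP replicates 1 and 4) and 580 (DESeq2), KO ONC against naïve from 4043 to 190 (without libraries high in Spp1), and KO IOP against naïve from 1347 to 3 (rod covariate). WT ONC against WT IOP went from 3715 to 417 (rod covariate), KO ONC against KO IOP from 412 to 3 (without libraries high in Spp1) and 669 (compared groups alone), KO against WT naïve from 70 to 1 (without libraries high in Spp1) and 480 (DESeq2), and KO against WT IOP from 360 to 20 (edgeR) and 1117 (microglia covariate). KO against WT ONC went from 15 to 2 (edgeR) and 85 (DESeq2), the interaction with ONC from 12 to 0 (edgeR) and 198 (DESeq2), and that with IOP elevation from 1496 to 62 (without WT IOP replicates 1 and 4). Leaving out 1 library moved these counts as well. Without KO naïve replicate 3 they were 1623 in KO against WT naïve, 3182 in KO IOP against naïve, 633 in the interaction with ONC and 3074 in that with IOP elevation. Without KO naïve replicate 2 they were 1 in KO against WT naïve and 92 in KO IOP against naïve. Without WT ONC replicate 2 they were 744 in KO against WT ONC, 5213 in WT ONC against naïve and 5826 in WT ONC against WT IOP, and without WT ONC replicate 1 they were 2, 1458 and 1259. Without WT IOP replicate 1 they were 102 in WT IOP against naïve and 573 in the interaction with IOP elevation, without WT IOP replicate 4 they were 109 in KO against WT IOP, and without KO ONC replicate 2 they were 127 in KO ONC against KO IOP. The shares of all genes called that stand beside the RGC counts move with them.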

Other observations

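Markers of further cell types were counted in the same comparisons. After ONC, 1 of 9 cone genes rose and 0 fell in WT, and 1 rose and 7 fell in KO. Of 5 Müller glia genes 1 fell in WT and 3 in KO, of 4 horizontal cell genes 1 in WT and 0 in KO, of 6 mural cell genes 0 and 3, and of 6 endothelial genes 0 and 2. Of 7 T cell genes 1 rose in WT and 0 in KO, and of 8 lens genes 1 fell in WT and 0 in KO. Of 3 astrocyte genes, Pax2 was at 0 in 19 libraries and was not tested, and 0 of the other 2 were called by limma (0 at an unadjusted p under 0.05).

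Amacrine cell genes were also summed after IOP elevation. The sum was 0.0516 to 0.087% of a WT IOP library and 0.153 to 0.174% of a naïve WT library, which do not overlap, while the RGC sums of 0.036 to 0.0644% and 0.0381 to 0.0534% overlap. In libraries labelled KO the amacrine sums of 0.117 to 0.135% after IOP elevation and 0.102 to 0.191% in naïve retinas overlap, while the RGC sums of 0.0243 to 0.0376% and 0.0557 to 0.0642% do not. Relative to the rod sum of the same library, the RGC sum was 2.06 to 2.55% in WT IOP and 1.87 to 3.12% in KO IOP libraries, both overlapping the naïve libraries of their genotype. These sums were not tested. Gene by gene, 0 of 10 amacrine cell genes were called in KO IOP against naïve by limma (0 at an unadjusted p under 0.05), and 1 of 10 was called higher in the interaction with IOP elevation.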
